A study of Homo sapiens with 6 samples.

Results

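Interferon-stimulated genes were followed in GFP-positive HEK293 cells, an established human embryonic kidney line, that had or had not been grown beside cells producing reactive oxygen species (ROS). They are 49 genes of the interferon response, chosen by name with results of this comparison known, and then selected on their read counts, with at least 10 reads in at least 3 of the 6 libraries. Of the 49, 47 passed, against 14740 of the 23686 genes in the files. The 2 that did not pass were MX2 and XAF1, and their reads are given with their classes. The reads used by this filter are a description of the members and support nothing else. Of the 47, OAS1, OAS2, OASL and IFI44 had fewer than 10 reads in at least 1 co-culture library, and passed mainly through the controls.

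The co-culture group holds 3 libraries of GFP-positive cells grown for 10 h with HEK293 cells carrying DAAO, an enzyme name that usually stands for D-amino acid oxidase, in medium with 25 µM D-alanine, and then sorted by flow cytometry for GFP. The control group holds 3 libraries, titled Wt controls, of GFP-positive HEK293 cells that were sorted the same way. All 6 samples carry the same treatment text, so whether the controls received D-alanine or partner cells is not given in the sources used here. Nothing in the labels says that the samples came from separate cultures, so p-values measure the spread between these samples only. The comparison sets cells grown beside ROS-producing cells against the controls.

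Interferons are secreted proteins that bind paired receptors on the cell surface and act through JAK kinases. For type I interferon, the receptor leads to a complex that holds STAT2 and IRF9 and binds the interferon-stimulated response element in target promoters. The targets include sensors of viral RNA, enzymes and membrane proteins that block viral growth, the ubiquitin-like protein ISG15 with the enzymes that attach it, and the STAT and IRF factors themselves, which makes the response feed on its own products. Many of these genes keep a low level without added interferon.

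The core of the response element was taken as 2 copies of GAAA with exactly 2 bases, of any kind, between them. This pattern was searched on both strands in the 300 bases around each start site (250 before and 50 after it). Start sites are those that RefSeq gives for GRCh38.p14. A promoter was found for 40 of the 49 members, and 24 of them (60.0%) held the core, against 3.57% of all 35116 promoters in the table. A second motif, the gamma-activated site TTCNNNGAA, reads the same on both strands and was found in 10 of the 40 (25.0%), against 7.66% of all promoters. The 2 patterns were counted separately, and overlapping matches were counted each. A match is a description of the letters, not of binding. For each member only the first listed start site was used, so a match at another start would be missed. The promoters of 8 members are shown, with the core in capitals where it was found. IFIT1, IFIT3, ISG15, IFI44L and IFITM1 hold the core and were more than 2-fold lower in co-culture. IFIT5, the neighbour of IFIT1 on chromosome 10, holds it and had a log2 fold change of -0.01. OAS1 and RSAD2, with larger differences than most of these, hold no match to this pattern and so are all in lower case. Both nevertheless hold GAAACGAAA, 2 copies of GAAA set closer together, which the pattern cannot match. They are therefore not shown to lack a response element.
IFIT1, chr10:89392373-89392672, plus strand: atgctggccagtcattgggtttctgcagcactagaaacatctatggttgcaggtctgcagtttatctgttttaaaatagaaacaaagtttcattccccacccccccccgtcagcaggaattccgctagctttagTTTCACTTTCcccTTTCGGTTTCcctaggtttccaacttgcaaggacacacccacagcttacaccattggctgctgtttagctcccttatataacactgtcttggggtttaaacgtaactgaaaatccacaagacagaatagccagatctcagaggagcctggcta
IFIT3, chr10:89327747-89328046, plus strand: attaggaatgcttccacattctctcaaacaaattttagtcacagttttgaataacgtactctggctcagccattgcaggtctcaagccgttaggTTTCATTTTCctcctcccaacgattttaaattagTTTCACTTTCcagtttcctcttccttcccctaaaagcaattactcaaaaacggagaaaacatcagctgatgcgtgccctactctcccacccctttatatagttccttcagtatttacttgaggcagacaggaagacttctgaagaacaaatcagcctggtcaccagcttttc
IFIT5, chr10:89414318-89414617, plus strand: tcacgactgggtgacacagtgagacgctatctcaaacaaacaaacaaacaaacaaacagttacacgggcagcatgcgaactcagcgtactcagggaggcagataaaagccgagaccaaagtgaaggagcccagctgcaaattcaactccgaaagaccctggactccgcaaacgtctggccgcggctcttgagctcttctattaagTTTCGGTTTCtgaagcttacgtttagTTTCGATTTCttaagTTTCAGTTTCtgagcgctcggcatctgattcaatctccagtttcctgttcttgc
ISG15, chr1:1013247-1013546, plus strand: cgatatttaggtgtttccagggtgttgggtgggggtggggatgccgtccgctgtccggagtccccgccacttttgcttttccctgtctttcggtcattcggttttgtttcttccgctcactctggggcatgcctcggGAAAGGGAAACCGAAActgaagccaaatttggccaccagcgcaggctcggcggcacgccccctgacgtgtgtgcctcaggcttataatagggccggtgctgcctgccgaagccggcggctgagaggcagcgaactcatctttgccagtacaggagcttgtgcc
IFI44L, chr1:78620198-78620497, plus strand: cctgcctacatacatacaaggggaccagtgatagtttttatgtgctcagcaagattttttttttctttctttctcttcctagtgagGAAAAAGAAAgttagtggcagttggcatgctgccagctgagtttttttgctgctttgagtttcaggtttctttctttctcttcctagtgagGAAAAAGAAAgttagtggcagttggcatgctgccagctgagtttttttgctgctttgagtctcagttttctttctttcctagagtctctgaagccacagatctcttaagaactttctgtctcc
IFITM1, chr11:313790-314089, plus strand: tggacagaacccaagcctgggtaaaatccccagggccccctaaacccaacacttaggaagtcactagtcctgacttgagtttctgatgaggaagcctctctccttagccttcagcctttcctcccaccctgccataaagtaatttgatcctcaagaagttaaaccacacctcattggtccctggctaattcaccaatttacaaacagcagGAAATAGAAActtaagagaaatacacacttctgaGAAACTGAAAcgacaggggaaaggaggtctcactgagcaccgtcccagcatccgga
OAS1, chr12:112906712-112907011, plus strand: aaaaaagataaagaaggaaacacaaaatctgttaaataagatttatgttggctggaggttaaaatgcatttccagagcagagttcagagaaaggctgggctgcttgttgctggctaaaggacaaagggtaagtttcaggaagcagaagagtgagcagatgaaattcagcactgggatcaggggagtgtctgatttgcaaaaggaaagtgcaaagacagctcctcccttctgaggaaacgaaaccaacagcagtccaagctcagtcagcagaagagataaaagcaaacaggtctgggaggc
RSAD2, chr2:6865635-6865934, plus strand: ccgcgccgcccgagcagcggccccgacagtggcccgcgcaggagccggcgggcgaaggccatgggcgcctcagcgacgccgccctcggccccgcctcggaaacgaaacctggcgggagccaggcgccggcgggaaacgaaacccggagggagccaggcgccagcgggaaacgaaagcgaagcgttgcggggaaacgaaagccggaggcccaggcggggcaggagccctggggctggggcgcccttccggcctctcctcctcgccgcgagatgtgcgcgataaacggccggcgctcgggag

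The promoter of IFIT5 held 3 matches, the first at -45 and the last at -4 from the start site, and those of IFIT1 and IFIT3 held 2 each, starting at -116 and -103 and at -156 and -122. The 2 matches of ISG15 overlapped, at -113 and -107. Those of IFI44L, at -164 and -73, were the same 10 letters, and those of IFITM1 were at -40 and -6. The RSAD2 window lies past the start of its neighbour CMPK2 (window 6866586-6866885, minus strand), in the direction in which CMPK2 is transcribed. Other RSAD2 start sites were not searched. Tested members with a match had a median log2 fold change of -0.49 (24 genes, range -3.04 to 0.02) and those with a promoter but no match one of -0.30 (15 genes, range -3.40 to 0.23). The ranges of the fold changes overlapped almost entirely. An adjusted p under 0.05 in the comparison was reached by 2 of the first 24 and by 4 of the other 15. OAS2, OASL, IRF7 and IFIT2 also reached it, but no promoter was found for them and they are in neither count. OAS1 and RSAD2 are counted without a match, though both hold the closer GAAA copies described above. The split therefore does not show how the calls relate to the response element.

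Library sizes were 20168708, 21357413 and 36250314 gene-assigned reads in co-culture 1, 2 and 3 and 19170544, 19091085 and 26127509 in controls 1, 2 and 3. In every library 0 reads allow up to 3, which is 0.0828 to 0.157 CPM (reads scaled to a common library size, counts per 1e6) and covers counting error only. The libraries fell into 2 classes by their reads on the unexpected, forward strand: the median share was 0.124% and 0.211% in co-culture 2 and 3 and 1.57% to 1.75% in the other 4. A class without controls gives no comparison of its own, so a fit that carries it as a batch term, in which only co-culture 1 is set against the controls, stands beside the results. No library had a read on the human DAO gene (0 in each), and a transgene of another sequence would not be counted there. The marker lists were added for context after their values were seen. All 10 listed HEK293 markers were tested, and 2 of them passed, VIM (0.40, adjusted p in edgeR 0.00793) and INA (0.38, 0.0118), both higher in co-culture. The HEK293 list summed to 2430 to 2640 CPM in co-culture and 2009 to 2087 CPM in the controls. Of its 10 genes, 8 were above 0 on the log2 scale and 5 were higher without overlap, where 14.3% of all tested genes were. Of 10 immune cell markers, 4 (CD3E, CD3D, MS4A1 and NKG7) had 0 reads in all libraries and the list summed to 1.62 to 2.00 CPM in co-culture and 1.87 to 2.30 CPM in the controls, most of it CD14. Of the 8 fibroblast and endothelial markers 3 were tested, and LUM was lower (-0.67, adjusted p in edgeR 0.0293); their sums were 49.6 to 54.2 CPM in co-culture and 45 to 59.7 CPM in the controls. The part of these markers in the results was not tested.

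Interferon-stimulated genes of several roles fell in the co-culture group, among them the OAS enzymes OAS1 and OAS2, viperin (RSAD2), IFIT2, IFIT3 and the factors IRF7 and IRF9, and none rose with all 6 libraries. Of the 47 tested members, 10 had an adjusted p under 0.05 and all 10 were lower: OAS1, OAS2, OASL, IRF7, IRF9, IFIT2, IFIT3, RSAD2, CMPK2 and DTX3L. That is 21.3% of the members, where 2.17% of all 14582 tested genes were called lower and 2.66% higher. At least 2-fold lower were 16 members, of 74 such genes in all (0.507% of those tested), and 0 members were at least 2-fold higher. OAS1 had the lowest log2 fold change of all tested genes, and 10 of the 20 lowest were members. Those 10 include OAS1, OAS2, OASL and IFI44, which passed the filter on reads mainly through the controls. OAS1, OAS2 and OASL are also among the 10 called, so their ranks and calls are a description and support nothing else. The members' median log2 fold change was -0.41, against -0.00 over all tested genes, with 41 members below 0 (50.4% of all tested genes were) and 6 above it. An unadjusted p under 0.05 was reached by 30 of the 47, and by 3377 of the 14582 tested genes. In CPM the groups did not overlap for 30 of the 47 (63.8%), each lower in co-culture, against 15.0% of all tested genes. Since the members were named with earlier results of these data in view, these shares are a description of the list.

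The test was edgeR's quasi-likelihood test over all genes with Benjamini-Hochberg adjustment. The count of called members depended on single libraries: it was 24 without control 1 (23 lower and IRF1 higher, with 10.3% of all genes called lower and 10.6% higher) and 20 without control 3 (2.26% of all genes), but 1 without control 2 (0.115%), 1 without co-culture 1 (0.250%), 0 without co-culture 2 (0.102%) and 2 without co-culture 3 (0.611%). OAS2 was the 1 member called without control 2 and without co-culture 1, and OAS2 and RSAD2 were called without co-culture 3. With strand class as a batch term 0 members passed, the members' median was -0.53 and 4 of all tested genes (0.0274%) were called lower. DESeq2 called 20 members, all lower, where it called 3.12% of all genes lower. The members called lower numbered 12 with scaling by total counts (3.92% of all genes), 10 in limma-voom (1.93%), 8 with counts taken without regard to strand (1.94%), 8 with the replicate number as a block (0.370%), and 12 of 49 without the filter on low counts (2.03%), where MX2 and XAF1 were among them. OASL lost its call in limma-voom (adjusted p 0.0544), with total counts (0.0505) and without strand (0.0551). CMPK2 lost its call in limma-voom (0.0627) and without strand (0.0610), and DTX3L without strand (0.0561). IFIT3 lost its call without the filter on low counts (adjusted p in edgeR 0.0631).

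**Figure D1:**
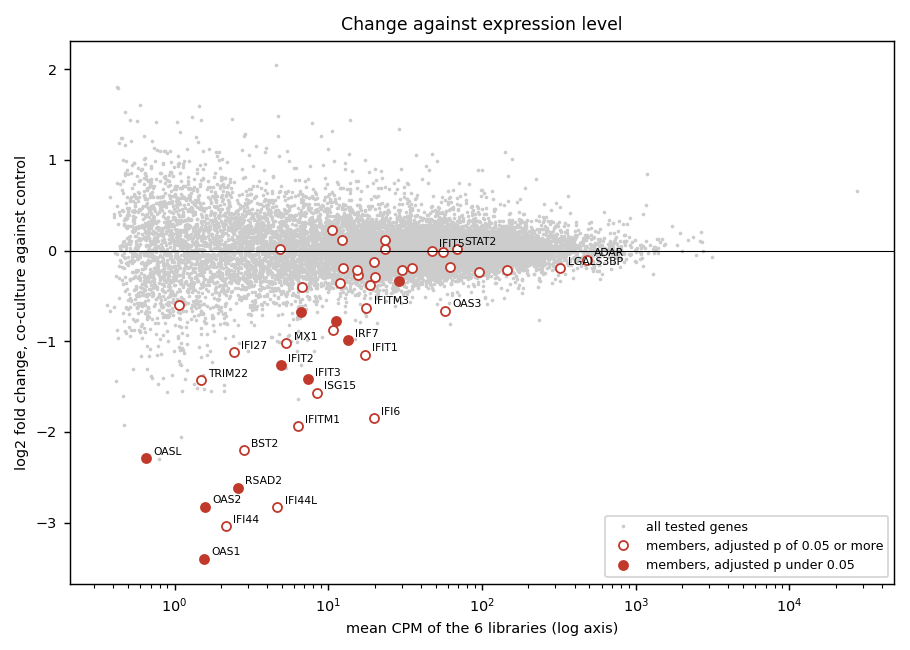
Log2 fold change, co-culture against control, plotted against the mean CPM of the 6 libraries on a log axis for 14582 tested genes (grey) and the 47 tested members (red circles, filled where the edgeR adjusted p was under 0.05). The members with a mean under 5 CPM reach down to OAS1 at -3.40, and members above 20 CPM lie within 1 log2 unit of 0.

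The 12 members with a mean under 5 CPM had a median log2 fold change of -2.25, and 10 of them were at least 2-fold lower. The 20 members from 5 to 20 CPM had a median of -0.65, with 6 at least 2-fold lower, and the 15 members above 20 CPM had a median of -0.19, with 0. Over all tested genes in the same 3 ranges the medians were 0.02, 0.00 and -0.01, and the median absolute log2 fold changes were 0.28, 0.15 and 0.10. Of all tested genes in these ranges, 2.08%, 0.455% and 0% were at least 2-fold lower. Per kilobase of exon, LGALS3BP (96.5 RPKM in the controls, that is CPM per kilobase), ADAR (51.6) and IFI6 (35.8) had the highest control levels of the members. IFI6 stood at 9.86 in co-culture, where LGALS3BP (84.3), ADAR (48.1), TRIM25 (14.2), HERC5 (12.3), IFIT5 (11.7) and STAT2 (11.3) were among the members above it. These levels used exon lengths of GENCODE 29, which may differ from the gene models the authors counted on. In bulk RNA, fewer cells that express a gene and less RNA per cell cannot be told apart.

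The controls differed among themselves at these genes. Control 1 was the highest of the 3 controls for 42 of the 47 members (89.4%), where it was so for 39.5% of all tested genes, and it was the highest of all 6 libraries for 38. The median log2 ratio of control 1 to the mean of controls 2 and 3 was 0.49 for the members and -0.01 for all genes. The median SD of log2 CPM was 0.31 among the controls and 0.11 among the co-culture libraries for the members, and 0.13 and 0.078 for all genes. Relative to each member's mean over the 6 libraries, the median member stood at -0.22, -0.21 and -0.25 in co-culture 1, 2 and 3 and at 0.57, 0.15 and 0.01 in controls 1, 2 and 3. The co-culture libraries were thus close together, and control 3 was the control nearest to them. Without control 1 the members' median was -0.28, with 39 of 47 below 0 (49.9% of all tested genes were) and 8 at least 2-fold lower.

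**Figure D2:**
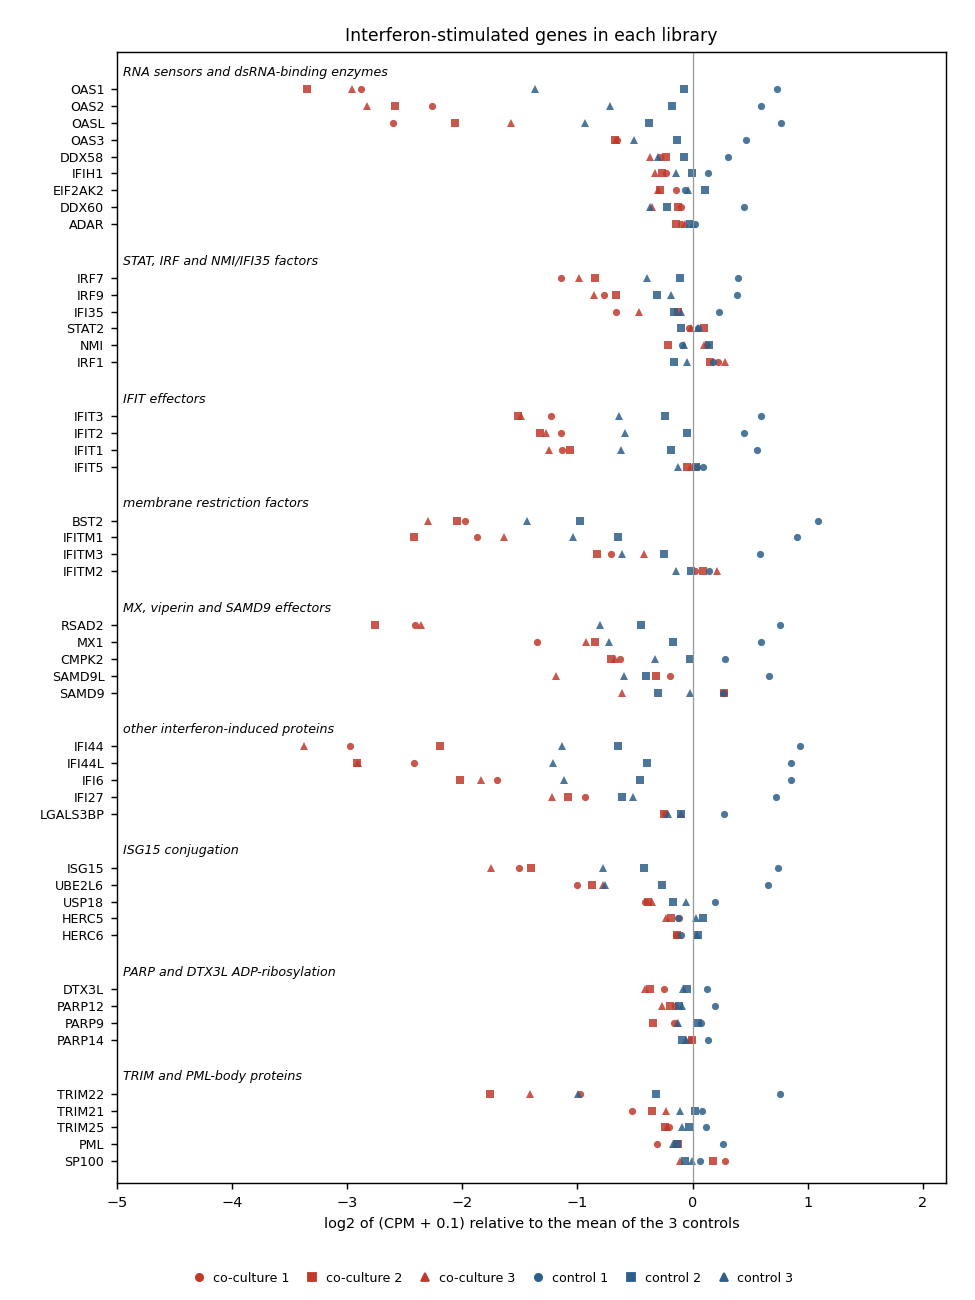
Each row is 1 tested member and each point 1 library, placed by the log2 of CPM plus 0.1 relative to the mean of the 3 controls (circles, squares and triangles are replicates 1, 2 and 3, red is co-culture and blue is control). Control 1 is the rightmost point for 38 of the 47 members, and the 3 co-culture points lie left of all controls for 30.

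Among the sensors and enzymes that bind double-stranded RNA, 3 of 9 members fell, OAS1, OAS2 and OASL, and 7 of the 9 had groups that did not overlap. All 3 passed the filter on reads mainly through the controls, so their calls are a description and support nothing else. The other members of the class did not pass with all 6 libraries in edgeR. Over all tested genes 2.17% were called lower and 15.0% were lower without overlap. The same shares stand beside the counts of each class that follows. The class median was -0.30 and all 9 log2 fold changes were below 0. The OAS enzymes make oligoadenylates that switch on RNase L when they meet double-stranded RNA. OAS1 stood at 0.300, 0.190 and 0.279 CPM in co-culture 1, 2 and 3 and at 4.80, 2.71 and 1.04 CPM in controls 1, 2 and 3. These were 6, 4 and 10 reads against 95, 52 and 27. All co-culture libraries were below the lowest control, with a log2 fold change of -3.40 (standard error 0.61, adjusted p in edgeR 0.0194). OAS2 read 0.500, 0.380 and 0.307 CPM in co-culture against 4.25, 2.45 and 1.65 CPM in the controls, -2.83 on the log2 scale (standard error 0.41, adjusted p in edgeR 0.00547). It was past the threshold in 12 of 14 other settings, the most of any member. These settings reuse the same libraries and the same few co-culture reads (10, 8 and 11), so this count is a description only. OASL, a relative that lacks this enzyme activity, had 2, 4 and 11 reads in co-culture and 39, 16 and 14 in the controls (0.10, 0.190 and 0.307 against 1.97, 0.835 and 0.537 CPM). Its log2 fold change was -2.29 (standard error 0.58), at the edge of the threshold with an edgeR adjusted p of 0.0497, and co-culture 3 was its highest co-culture library.

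OAS3, the OAS member of highest level per kilobase here, gave 44.8, 44.2 and 44.7 CPM in co-culture and 97.9, 64.6 and 49.7 CPM in the controls. The co-culture libraries were nearly equal and control 1 stood far above the others. Its log2 fold change of -0.66 (standard error 0.24) missed the threshold (adjusted p in edgeR 0.166), and was -0.35 without control 1 (adjusted p in edgeR 0.0212) and -0.87 without control 3 (0.0300), where it passed. In the RefSeq gene order OAS1, OAS3 and OAS2 are neighbours on chromosome 12, with log2 fold changes of -3.40, -0.66 and -2.83, whose differences were not tested.

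The cytosolic helicases that sense viral RNA did not pass. IFIH1 (MDA5) was at 14.6, 14.3 and 13.7 CPM in co-culture and 18.9, 17.1 and 15.5 CPM in the controls, a log2 fold change of -0.27 (standard error 0.099, adjusted p in edgeR 0.132), with no overlap. DDX58 (RIG-I) was at 18.3, 19.0 and 17.2 CPM against 27.6, 21.1 and 18.1 CPM, where co-culture 1 and 2 lay above control 3. It stood at -0.30 (standard error 0.14, adjusted p in edgeR 0.222) and passed only without control 3 (-0.43, 0.0498). DDX60, a related helicase, overlapped as well, at 12.4, 12.2 and 10.4 against 18.2, 11.4 and 10.3 CPM, and its sign turned from -0.19 to 0.10 without control 1. EIF2AK2, the kinase PKR that stops translation on binding double-stranded RNA, was at 94.1, 85.5 and 84.7 against 99.2, 112 and 101 CPM. Every co-culture library was lower, control 2 rather than control 1 was highest, and the log2 fold change was -0.24 (standard error 0.068, adjusted p in edgeR 0.0694), with 0.00383 without control 1, 0.0383 with total counts and 0.0431 in DESeq2, where it passed. ADAR, which edits such RNA and so keeps it from being sensed, gave 466, 454 and 479 CPM in co-culture against 508, 492 and 500 CPM, -0.10 on the log2 scale (standard error 0.059, adjusted p in edgeR 0.337).

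Of the STAT and IRF factors and their partners, 2 of 6 members fell, IRF7 and IRF9, and the other 4 did not pass. The class median was -0.19, with 3 members above 0. IRF9 is the part of that complex that recognises the response element. It was at 8.21, 8.84 and 7.74 CPM in co-culture 1, 2 and 3 and 18.5, 11.4 and 12.4 CPM in controls 1, 2 and 3, a log2 fold change of -0.77 (standard error 0.17, adjusted p in edgeR 0.0333). Control 1 was highest and all 3 controls were above all 3 co-culture libraries. IRF7, the factor that drives most interferon alpha genes, was at 8.01, 9.84 and 8.91 against 23.4, 16.5 and 13.5 CPM, also without overlap, and its log2 fold change was -0.99 (standard error 0.19, adjusted p in edgeR 0.0214). Reads on the other strand made up 5.46% of its reads. STAT2 was at 66.2, 72.8 and 67.3 CPM in co-culture and 69.9, 63.4 and 70.1 CPM in the controls (0.02, standard error 0.068, adjusted p in edgeR 0.895). The groups overlapped, and its sign turned to -0.01 with scaling by total counts.

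IRF1, a factor also induced by interferon gamma and by NF-kB, was the member with the highest log2 fold change, 0.23 (standard error 0.12, adjusted p in edgeR 0.281), at 11.4, 10.9 and 11.9 CPM in co-culture and 11.1, 8.76 and 9.48 CPM in the controls. Control 1 lay among the co-culture libraries, and without it IRF1 was the 1 member that passed as higher (0.32, adjusted p in edgeR 0.0439). NMI and IFI35, proteins that bind each other, did not pass. NMI gave 5.25, 4.13 and 5.14 CPM against 4.50, 5.32 and 4.56 CPM (0.02, standard error 0.16) and IFI35 gave 4.85, 7.08 and 5.56 CPM against 9.10, 6.89 and 7.21 CPM (-0.41, standard error 0.17). Their adjusted p-values in edgeR were 0.954 and 0.187, and both overlapped between the groups. Sensors and factors thus each held members near 0. The sensors that passed, OAS1, OAS2 and OASL, had entered the test mainly through reads in the controls. IRF7 and IRF9 had at least 10 reads in every library. No test of one class against the other was made.

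**Figure D3:**
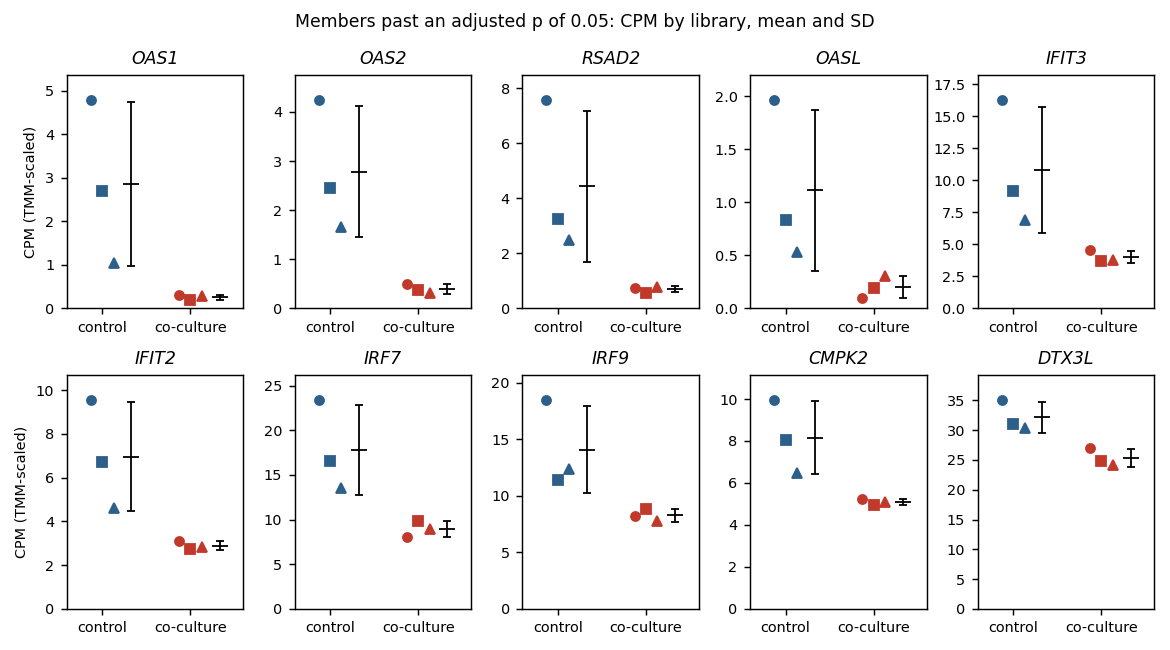
CPM in each library for the 10 members with an edgeR adjusted p under 0.05, controls in blue and co-culture in red (circles, squares and triangles are replicates 1, 2 and 3), with the mean and SD of each group beside the points, on linear axes that start at 0. In all 10 panels the 3 co-culture points lie below the lowest control, and control 1 is the highest point.

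Of the IFIT proteins, a family in which some members bind foreign RNA and block its translation, IFIT2 and IFIT3 fell, and IFIT1 and IFIT5 did not pass. IFIT2 was at 3.10, 2.71 and 2.82 CPM in co-culture and 9.55, 6.73 and 4.60 CPM in the controls, a log2 fold change of -1.26 (standard error 0.25, adjusted p in edgeR 0.0210). IFIT3 was at 4.55, 3.71 and 3.77 against 16.3, 9.13 and 6.90 CPM, with -1.42 on the log2 scale and an edgeR adjusted p of 0.0345. IFIT1 stood at 10.8, 11.3 and 10.0 against 35.1, 20.9 and 15.4 CPM. All 3 had control 1 highest and no overlap between the groups. The log2 fold change of IFIT1, -1.15 (standard error 0.30), had an edgeR adjusted p of 0.0840, and it passed without control 1 (-0.76, 0.000498), without control 3 (-1.39, 0.0115) and in DESeq2 (adjusted p 0.0252). IFIT5 was at 48.6, 45.9 and 46.9 CPM in co-culture and 50.6, 48.3 and 43.3 CPM in the controls. Its log2 fold change was -0.01 (standard error 0.074, adjusted p in edgeR 0.971), and its promoter, printed earlier, holds the response element core. The 4 IFIT genes are pairs of neighbours in the RefSeq order, IFIT2 beside IFIT3 and IFIT1 beside IFIT5.

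In the class of MX proteins, viperin and SAMD9 proteins, RSAD2 and CMPK2 fell among 5 tested members in edgeR, and DESeq2 called MX1 as well. RSAD2 (viperin) makes a nucleotide that ends viral RNA chains, and CMPK2 is a nucleotide kinase that lies next to it on chromosome 2. RSAD2 was at 0.751, 0.570 and 0.782 CPM in co-culture and 7.58, 3.23 and 2.49 CPM in the controls. In reads this was 15, 12 and 28 against 150, 62 and 65, with a log2 fold change of -2.62 (standard error 0.45, adjusted p in edgeR 0.0159). CMPK2 was at 5.25, 4.94 and 5.08 against 9.96, 8.03 and 6.48 CPM, a smaller difference of -0.67 (standard error 0.17, adjusted p in edgeR 0.0465). Neither gene had overlapping groups.

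MX1, a GTPase that traps viral nucleocapsids, was at 2.75, 3.94 and 3.74 CPM in co-culture and 10.9, 6.36 and 4.30 CPM in the controls. The groups were apart, but control 3 was close to co-culture 2 and 3, and the log2 fold change of -1.02 (standard error 0.32) had an edgeR adjusted p of 0.0994. Without control 1 it was -0.58 (adjusted p in edgeR 0.0445), and it also passed without control 3 (0.0101) and in DESeq2 (0.0106). Its neighbour MX2 had 1, 1 and 2 reads in co-culture 1, 2 and 3 and 27, 11 and 9 reads in the controls, and the filter on low counts removed it. SAMD9 and SAMD9L, neighbours on chromosome 7 that act on translation, overlapped between the groups. SAMD9 gave 28.1, 28.1 and 15.2 against 27.9, 18.9 and 22.9 CPM (0.02, standard error 0.27, adjusted p in edgeR 0.978), with co-culture 3 lowest of all 6. SAMD9L gave 1.10, 0.998 and 0.503 against 2.07, 0.939 and 0.806 CPM (-0.60, standard error 0.43, adjusted p in edgeR 0.434).

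The membrane proteins that hold viruses back at entry or budding did not pass with all 6 libraries in edgeR (0 of 4, with 2 at an unadjusted p under 0.05), while DESeq2 called IFITM1 (adjusted p 0.0371). BST2 and IFITM1 had non-overlapping groups. BST2 (tetherin), which holds budding virus at the surface, was at 1.10, 1.05 and 0.866 CPM in co-culture and 9.96, 2.30 and 1.65 CPM in the controls. Control 1 was several times the other controls, and the log2 fold change of -2.20 had an SE of 0.78 (adjusted p in edgeR 0.161). It was -0.98 without control 1 (adjusted p in edgeR 0.0147). IFITM1 was at 2.70, 1.81 and 3.18 against 19.1, 6.42 and 4.87 CPM, -1.94 on the log2 scale (standard error 0.60, adjusted p in edgeR 0.129), or -1.08 without control 1 (0.00196). Its neighbours on chromosome 11 had smaller values, whose difference from it was not tested. IFITM3 was at 13.2, 12.1 and 16.1 against 32.6, 18.2 and 14.1 CPM (-0.63, standard error 0.32, adjusted p in edgeR 0.300). IFITM2 was at 11.9, 12.5 and 13.6 against 12.9, 11.6 and 10.6 CPM (0.12, standard error 0.11, adjusted p in edgeR 0.556). Both overlapped between the groups. The IFITM genes are similar in sequence, reads that map to several places were not counted, and the division of reads among them is uncertain.

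A class of other interferon-induced proteins held the largest differences that did not pass in edgeR. Of its 6 members, 5 were tested, 0 passed in edgeR (4 had an unadjusted p under 0.05) and 4 were at least 2-fold lower without overlap. DESeq2 called those 4, IFI6 (adjusted p 0.0263), IFI27 (0.0390), IFI44 (1.49e-06) and IFI44L (0.000659). IFI44 had 8, 16 and 10 reads in co-culture and 146, 46 and 44 reads in the controls, or 0.400, 0.760 and 0.279 against 7.38, 2.40 and 1.69 CPM. The log2 fold change was -3.04 (standard error 0.70) with an edgeR adjusted p of 0.0543, just above the threshold. IFI44L, its neighbour, was at 1.45, 0.998 and 1.01 against 14.9, 6.21 and 3.49 CPM, with -2.83 (standard error 0.60, adjusted p in edgeR 0.0524). Both passed without control 1 (adjusted p in edgeR 0.000414 and 0.000165, at -2.15 and -2.07), without control 3, and in DESeq2, limma-voom and with total counts.

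IFI6, a small protein of mitochondria and the endoplasmic reticulum, was at 9.46, 7.55 and 8.58 CPM in co-culture and 56.1, 22.5 and 14.2 CPM in the controls. The control mean of 30.9 ± 22.1 CPM (SD, n = 3) shows how far control 1 stood from the others, and the log2 fold change was -1.85 (standard error 0.59, adjusted p in edgeR 0.159), or -1.09 without control 1 (0.0160). IFI27 was at 1.70, 1.52 and 1.37 against 5.56, 2.14 and 2.30 CPM (-1.12, standard error 0.36, adjusted p in edgeR 0.103). LGALS3BP, a secreted glycoprotein, was at 292, 291 and 323 against 417, 322 and 298 CPM, with overlapping groups (-0.19, standard error 0.11, adjusted p in edgeR 0.336). XAF1, a protein tied to cell death, had 0, 0 and 0 reads in co-culture and 10, 4 and 2 in the controls. The filter removed it, and in a co-culture library 0 reads allow up to 0.0828 to 0.149 CPM, against 0.505, 0.209 and 0.0767 CPM in the controls.

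ISG15, the enzymes that attach or remove it and HERC6 gave 0 calls in edgeR among 5 members, 4 of which had an unadjusted p under 0.05. DESeq2 called ISG15 and USP18. ISG15, the ubiquitin-like modifier, was at 4.35, 4.70 and 3.66 CPM in co-culture and 21.1, 9.34 and 7.29 CPM in the controls. All controls lay above all co-culture libraries, control 1 far above the rest, and the log2 fold change was -1.57 (standard error 0.42, adjusted p in edgeR 0.0876). It passed without control 1 (-0.98, adjusted p in edgeR 0.000303) and in DESeq2 (adjusted p 0.0243). USP18, which removes ISG15 and damps the type I receptor, was at 15.9, 16.2 and 16.6 against 24.3, 18.8 and 20.4 CPM (-0.38, standard error 0.10, adjusted p in edgeR 0.0595). UBE2L6, the conjugating enzyme, was at 6.90, 7.55 and 8.10 against 22.0, 11.6 and 8.17 CPM (-0.87, standard error 0.35, adjusted p in edgeR 0.199), and co-culture 3 was only just below control 3. It passed without control 3 (adjusted p in edgeR 0.0442), and USP18 passed without control 1 (0.0322) and in DESeq2 (0.0427).

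HERC5, a ligase of the pathway, and HERC6 differed less. HERC5 was at 61.0, 58.0 and 56.6 CPM in co-culture and 60.8, 70.4 and 67.5 CPM in the controls (-0.18, standard error 0.071, adjusted p in edgeR 0.161). Here control 1 was the lowest control and overlapped with co-culture 1, and without it HERC5 passed (-0.24, adjusted p in edgeR 0.00961). HERC6 beside it on chromosome 4 was at 18.9, 19.0 and 19.2 against 19.5, 21.6 and 21.5 CPM (-0.13, standard error 0.081, adjusted p in edgeR 0.359).

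Among the ADP-ribosylating proteins, DTX3L fell and the 3 PARP members did not pass. DTX3L is a ubiquitin ligase that works as a pair with PARP9. It was at 27.1, 24.9 and 24.2 CPM in co-culture and 35.1, 31.1 and 30.3 CPM in the controls, a log2 fold change of -0.34 (standard error 0.083, adjusted p in edgeR 0.0442), the smallest of the 10 called. PARP9, its neighbour on chromosome 3, was at 29.1, 25.6 and 29.6 against 34.3, 33.6 and 29.9 CPM (-0.21, standard error 0.085, adjusted p in edgeR 0.171). PARP12 gave -0.21 and PARP14 -0.02 (standard error 0.11 and 0.073, adjusted p in edgeR 0.262 and 0.894), with PARP14 at 55.7, 56.0 and 54.0 against 61.7, 52.7 and 53.8 CPM. PARP14 overlapped between the groups.

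None of the 5 TRIM and PML-body members passed with all 6 libraries in edgeR, where 3 had an unadjusted p under 0.05. TRIM22 passed in DESeq2 (adjusted p 0.0369) and without control 3. TRIM25, the ligase that activates RIG-I, was at 136, 133 and 135 CPM in co-culture and 170, 154 and 147 CPM in the controls. Each control lay above each co-culture library, by a log2 fold change of -0.22 (standard error 0.065, adjusted p in edgeR 0.0794), and it passed without control 1 (0.0342) and without control 3 (0.0439). TRIM21, a cytosolic antibody receptor, gave 9.26, 10.5 and 11.4 against 14.2, 13.6 and 12.4 CPM (-0.36, standard error 0.11, adjusted p in edgeR 0.0926). TRIM22 had 21, 12 and 27 reads in co-culture and 74, 33 and 27 in the controls, and co-culture 1 and control 3 were nearly equal at 1.05 and 1.04 CPM (-1.43, standard error 0.47, adjusted p in edgeR 0.107). PML and SP100, which build nuclear bodies, overlapped between the groups. PML was at 30.1, 34.2 and 33.5 against 44.8, 34.0 and 33.2 CPM (-0.19, standard error 0.11, adjusted p in edgeR 0.329) and SP100 at 27.4, 25.4 and 20.8 against 23.6, 21.5 and 22.4 CPM (0.11, standard error 0.10, adjusted p in edgeR 0.545).

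**Figure D4:**
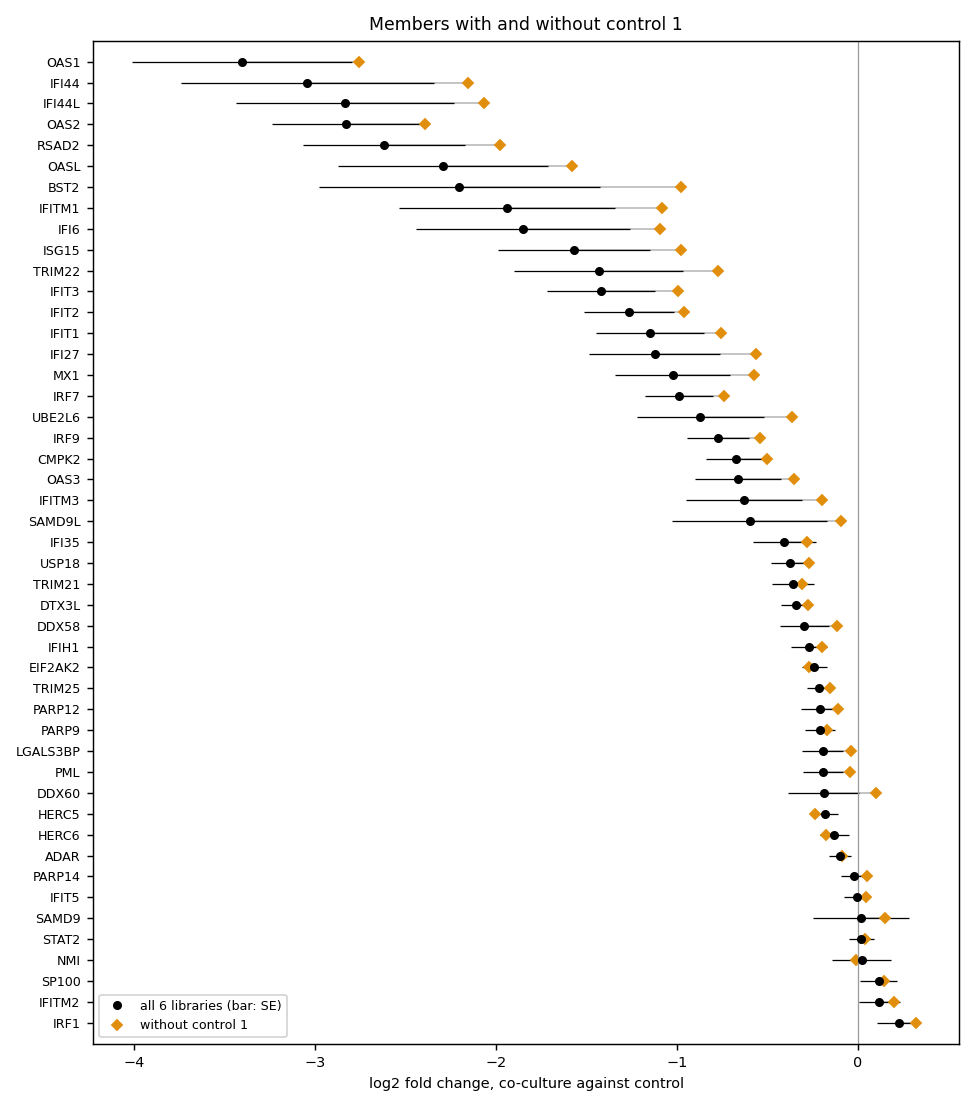
Log2 fold change, co-culture against control, of the 47 tested members with all 6 libraries (black, bars are SE) and without control 1 (orange), sorted by the first. Leaving out control 1 moved most members toward 0, as for BST2 from -2.20 to -0.98, and for OAS2 from -2.83 to -2.39.

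Few other genes of the pathway passed. Of 97 ligands, receptors, signalling proteins, sensors and further interferon-stimulated genes listed beside the members, 69 were tested and 4 passed, 2 lower and 2 higher (5.80%, where 4.83% of all tested genes were called). Their median log2 fold change was -0.01. Interferon genes themselves were at or near 0: none of the 10 listed was tested, 4 had 0 reads in all libraries, and IFNB1 had 0, 0 and 1 reads in co-culture 1, 2 and 3 and 3, 1 and 0 in controls 1, 2 and 3. These reads cannot show a difference at this depth.

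Of 14 tested receptors and JAK-STAT proteins outside the list of members, 0 passed in edgeR, DESeq2 or limma-voom, and 2 (IFNLR1 and SOCS3, named after their values were seen) had an unadjusted p under 0.05 in edgeR. The chains of the type I receptor, IFNAR1 and IFNAR2, stood at -0.09 and 0.03 (standard error 0.084 and 0.071, adjusted p in edgeR 0.575 and 0.831), with IFNAR1 at 116, 117 and 111 CPM against 104, 131 and 130 CPM. The groups overlapped for IFNAR1. The kinases JAK1 and TYK2 were at 0.01 and 0.05 (standard error 0.071 and 0.069), and did not pass either.

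Of 16 tested upstream sensing genes, 1 passed, TBK1, and it was higher (6.25%, near the 4.83% of all tested genes that were called). TBK1, the kinase that activates IRF3, was at 67.9, 66.8 and 58.9 CPM in co-culture and 45.6, 52.3 and 53.7 CPM in the controls, with a log2 fold change of 0.35 (standard error 0.082, adjusted p in edgeR 0.0392). MAVS was at -0.00 (standard error 0.061), and STING1, listed in the files as TMEM173, was at -0.09 (standard error 0.098). CGAS, listed as MB21D1, had 8, 10 and 4 reads in co-culture and 6, 14 and 13 in the controls and was not tested.

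Among 52 further interferon-stimulated genes, 39 were tested, 2 fell and 1 rose. That is 7.69%, near the 4.83% of all tested genes that were called. EPSTI1 fell from 7.29 ± 1.76 to 3.83 ± 0.294 CPM (SD, n = 3 each; log2 fold change -0.93, standard error 0.19, adjusted p in edgeR 0.0246). TMEM140 fell as well (-1.92, standard error 0.46, adjusted p in edgeR 0.0424), with 1, 5 and 9 reads in co-culture and 18, 15 and 15 in the controls, but 98.5% of the reads over it were on the other strand, so its counts are uncertain. SLFN11, which restricts translation of some viral messages, rose from 283 ± 11.8 to 352 ± 4.69 CPM (0.31, standard error 0.059, adjusted p in edgeR 0.0175). The chemokine CXCL11, a gene induced through interferon gamma, had 0, 0 and 0 reads in co-culture and 4, 2 and 4 in the controls, too few to test. All 4 pathway genes that passed lost the call when strand class was a batch term (adjusted p in edgeR 0.172 to 0.310).

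**Figure D5:**
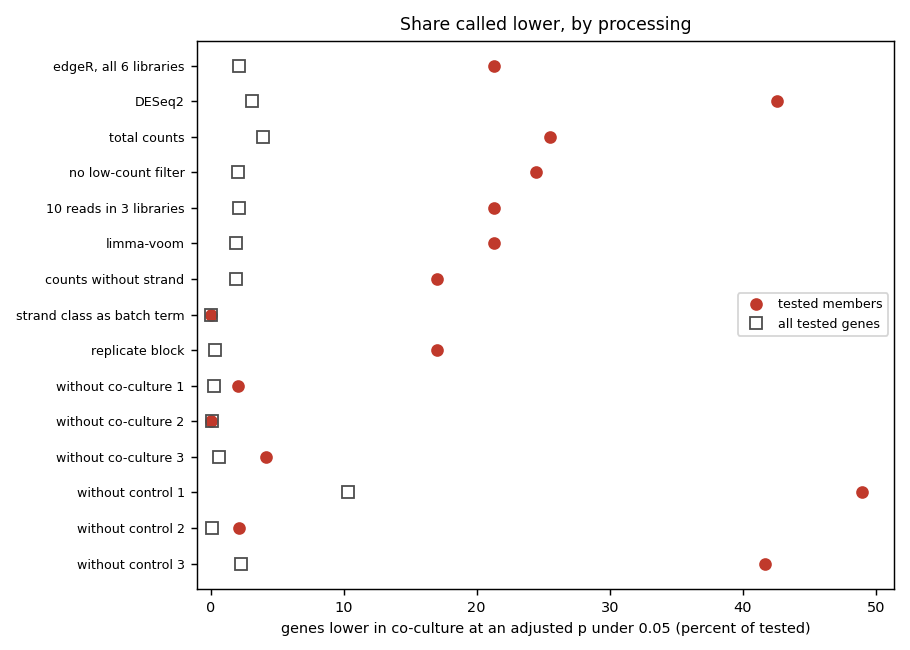
Share of tested members (filled red circles) and of all tested genes (open grey squares) that were lower in co-culture at an adjusted p under 0.05, in percent, for the fit with all 6 libraries and 14 other settings. The members' share runs from 0 with the strand class term or without co-culture 2 to 48.9% without control 1, where the share of all genes is 10.3%.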

How the data were processed

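Stranded mRNA libraries of 6 sorted HEK293 samples were sequenced, per the labels' protocols. Each of the 6 deposited files gives unnormalized read counts per gene under 3 strand settings, and the authors used STAR 2.53a and the build hg18, per the submitters' processing notes. The annotation is not given in the sources used here. The reverse-strand counts of 23686 genes were used. Summary lines were left out: 6.48% to 8.42% of the reads were multimapping and 14.8% to 17.7% lay in no gene.

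Groups came from the sample titles. Libraries of a group differed by more than sampling noise (chi-square per degree of freedom 4.73 to 18.5). For the comparison, edgeR 4.0.16 under R 4.3.3 took group alone as its term, after filterByExpr at a minimum count of 10 (14582 genes tested) and TMM scaling, with robust quasi-likelihood F tests and Benjamini-Hochberg adjustment over all tested genes at 0.05. Standard errors are the absolute log2 fold change over the square root of F. CPM are TMM-scaled. Alternatives used DESeq2 1.42.0, limma 3.58.1, total-count scaling, other filters, counts without strand, the strand class or the replicate number as a term, and leaving out each library.

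The members and all lists were chosen with earlier results of these data known. Every member is described. Other listed pathway genes are named where they passed, along with receptor chains and ligands; 1 more gene was left out of all lists and is not reported here; JAK1, TYK2, MAVS, STING1, CGAS, CXCL11 and the markers were added for context after their values were seen. Of the listed genes, 4 were found under an older symbol. Sequences are RefSeq's for GRCh38.p14. On simulated counts, 95.0% of 200 genes changed by 2-fold were called, 9.52% of the calls were false, and 1 of 14500 unchanged genes was called when none changed.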

Additional observations from a re-analysis of the deposited data

How the results depend on the processing

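Every value here compares co-culture with control. The count of all genes past the threshold was 704, and 29 with strand class added as a term, 164 with the replicate block and 65 to 3069 when 1 library was left out. For the members it was 10, and 20 in DESeq2, 0 with strand class added, 8 with the replicate block and 0 to 24 when 1 library was left out. For the other interferon pathway genes it was 4, and 0 with the strand class, 0 with the replicate block and 0 to 16 without 1 library. The members' median log2 fold change was -0.41, and -0.64 to -0.28 without 1 library. It was below 0 in all 14 settings. In all of them at least 39 tested members were below 0. Scaling by total counts moved the median of all genes from -0.00 to -0.04 and turned the signs of STAT2, NMI and SAMD9, all 3 within 0.03 of 0. Without control 1, the library in which most members were highest, the called members numbered 24 and included all 10 called with 6 libraries, and without control 3 they numbered 20, again with all 10. Without co-culture 1, 2 or 3 or control 2, the calls kept were 1, 0, 2 and 1 of the 10. OASL, at an adjusted p of 0.0497, has no DESeq2 adjusted p. The replicate numbers did not pair the libraries: same-numbered libraries deviated from their group means with correlations of -0.06, -0.13 and -0.14, and with the replicate block IRF7, IRF9, OASL, CMPK2 and DTX3L lost their calls while IFI44, IFI44L and ISG15 gained one. With the strand class term all 10 lost theirs at log2 fold changes from -3.38 (OASL) to -0.25 (DTX3L). Leaving out a library also leaves fewer samples, and the cause of the other changes was not tested. Genes with few reads, such as MX2, XAF1 and the interferon genes, are limited by depth.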
